A study of Bos taurus with 10 samples.

Results

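Cells obtain glycine and one-carbon units, the single carbons carried by folate, from serine and, in some cell types, from threonine. The 10 genes described here encode enzymes of these routes, and they were chosen by symbol from a table of 21130 gene rows: Tdh, Gcat, Gldc, Shmt1, Shmt2, Mthfd2, Mthfd1l, Phgdh, Psat1 and Psph. Each symbol had exactly 1 row. All 10 reached 1 FPKM (fragments scaled by transcript length and library size) in at least 3 libraries, so all 10 were among the 14047 genes tested.

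The libraries are labelled as muscle of cattle aged 24 months. The 7 named LN010 to LN016 carry the genotype label MSTN+/-, meaning that 1 copy of the gene for myostatin, an inhibitor of muscle growth, was altered. The 3 named LN018, LN019 and LN020 carry the label wild type. Libraries are called by these titles below. The labels do not say how the MSTN allele was made or how many animals were sampled. A p-value here therefore sets a difference between labels against library-to-library spread, part of which may be technical.

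The contents of the table differ from these labels, and its columns may not come from the labelled samples, so every value below belongs to a column carrying a label rather than to a known genotype. All 10 members are described in it as transcripts of Mus musculus, as are 19415 of its rows, and 0 of the members' 15 transcript accessions are in the RefSeq gene table of cattle. Of 13 skeletal muscle markers, 3 stayed below 1 FPKM in all libraries, among them the myosin heavy chain gene Myh4 and the titin gene Ttn, and the muscle creatine kinase gene Ckm did not exceed 1.07 FPKM. Others were detected: Myh2, another myosin heavy chain gene, was at 5.73 to 15.3 FPKM across LN010 to LN016 and at most 0.14 FPKM in wild-type libraries, and the actin gene Acta1 was at 24.4 FPKM in LN018. The summed level of the list was 25.4 to 56.0 FPKM across LN010 to LN016, 39.4 FPKM in LN018, and 168 and 136 FPKM in LN019 and LN020, of which the myosin light chain gene Mylpf alone gave 155 and 125 FPKM. The summed level of 10 markers of pluripotent cells was 912 to 1553 FPKM across LN010 to LN016, 2.25 FPKM in LN018, and 2628 and 2947 FPKM in LN019 and LN020. The list was not uniform. All 10 were below the 7 MSTN+/- libraries in LN018, and 8 were above them in both LN019 and LN020, but Pou5f1 was at 633 to 848 FPKM in the 7 against 346 and 533 FPKM, and Sox2 at 212 to 357 FPKM against 224 and 202 FPKM. Without Pou5f1 and Sox2 the sum was 26.2 to 431 FPKM in the 7, 1.35 FPKM in LN018, and 2059 and 2212 FPKM in LN019 and LN020. The summed level of 10 fibroblast markers was 2761 to 5775 FPKM, 6035 FPKM, and 383 and 255 FPKM in the same order. In LN018, 6 of these were above the 7, 2 within their range and 2 below it, namely Dcn at 24.3 FPKM against 169 to 324 FPKM and Lum at 28.8 FPKM against 45.2 to 99.9 FPKM, and 9 were below the 7 in both LN019 and LN020. LN018 thus stands apart from the other libraries of its label, and the members' changes and the list counts are given with and without it. This split was made after the values were seen. Fits without LN018 or against it alone therefore describe the split and do not test it, and the latter rest on 1 wild-type library. Whether a difference reflects fewer cells of a type or less RNA per cell cannot be told apart in bulk libraries, and the genotype is not taken as the source of any difference. FPKM totals were 402716 to 464418, 11856 to 13858 genes reached 1 FPKM, and the steps between low values put relative depth at 1 to 1.22 times that of LN010.

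The pathway has a few connected branches. Threonine dehydrogenase, encoded by Tdh, and the acetyltransferase encoded by Gcat split threonine into glycine and acetyl-CoA in mitochondria, and Tdh is known for its high expression in mouse embryonic stem cells, whereas the human gene is not functional. Phgdh, Psat1 and Psph act in sequence to make serine from a glycolytic intermediate. The hydroxymethyltransferases Shmt1 in the cytosol and Shmt2 in mitochondria turn serine into glycine and a folate-bound carbon, the glycine cleavage system with Gldc as its decarboxylase releases another carbon from glycine, and Mthfd2 and Mthfd1l carry mitochondrial carbons towards formate. Formate feeds purine and thymidylate synthesis and the methionine cycle.

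Across the 10 members, levels differed mainly in where LN018 lay. Both LN019 and LN020 lay above every MSTN+/- library for 10 of 10 members, where 31.7% of all genes tested did so. In LN018, by contrast, 5 members lay above all 7 MSTN+/- libraries (19.8% of all genes tested), 3 (Shmt1, Mthfd1l and Psph) within their range, and 2, Tdh and Gldc, below them (50.0% of all genes tested). The 5 that were high in all 3 wild-type libraries were Phgdh, Psat1, Mthfd2, Shmt2 and Gcat. These positions were described after the values were seen.

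**Figure D1:**
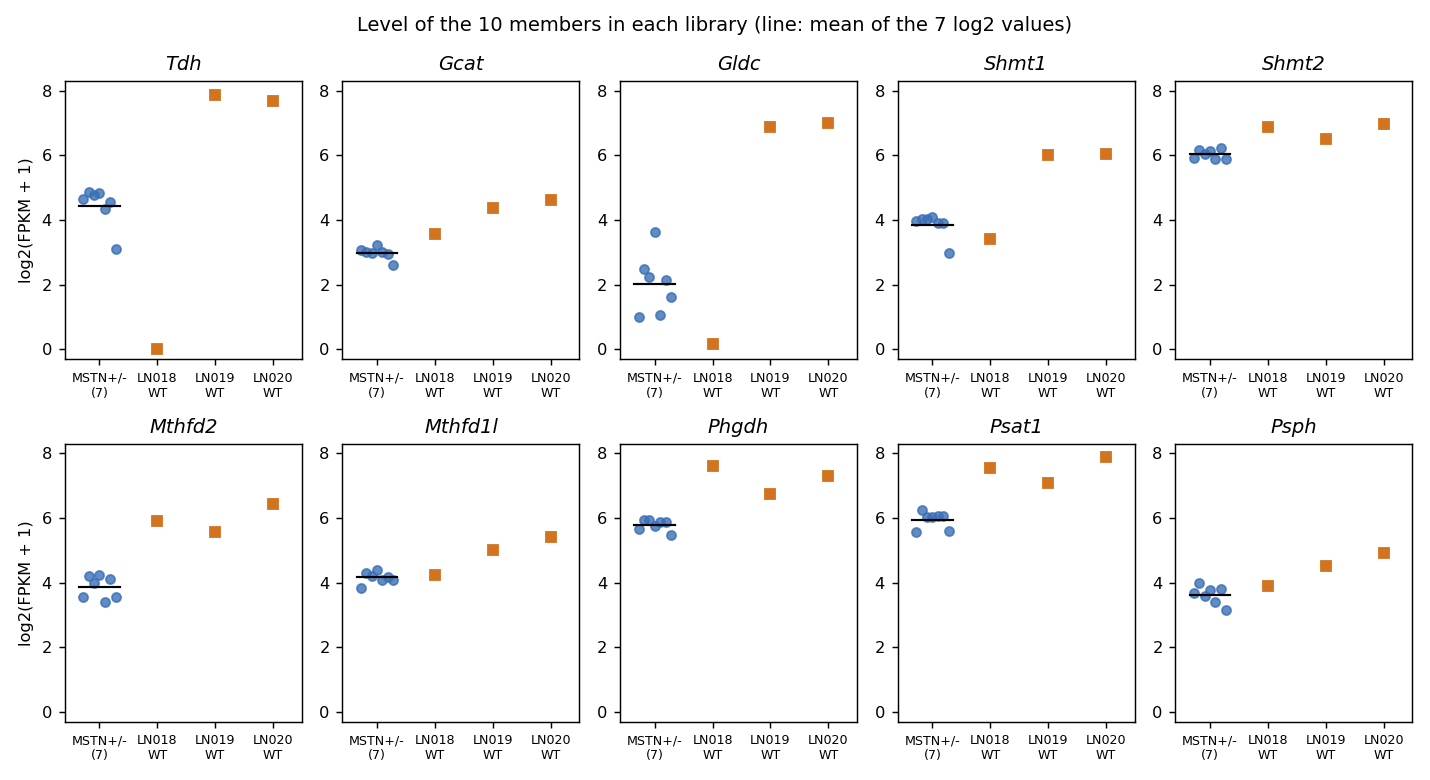
Level of each member as log2(FPKM + 1) in the 7 libraries labelled MSTN+/- (circles, with the mean of their log2 values as a line) and in the 3 labelled wild type (squares). Tdh and Gldc lie below the 7 libraries in LN018 and above them in LN019 and LN020, whereas Phgdh, Psat1, Mthfd2, Shmt2 and Gcat lie above the 7 in all 3.

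In the fit of the labelled groups, 7 of 10 members were lower in MSTN+/- libraries and 0 were higher (limma, adjusted p under 0.05 over all genes tested). At an unadjusted p under 0.05, 8 were lower and 0 higher, beside 2427 lower and 5097 higher of the 14047 genes tested. At the adjusted threshold, 12.8% of all genes tested were called lower and 31.8% higher. The median log2 change of the members was -1.25, and that of all genes tested was 0.17, so the members' changes are best read against that positive shift. The number of genes called in each direction depended on scaling: 4468 higher and 1800 lower as deposited became 3264 and 3230 after median-of-ratios scaling and 3087 and 3491 after quantile normalization. Under both scalings 8 members were lower and 0 higher. Without LN018, 10 of 10 members were lower and 0 higher, where 31.9% of all genes tested were lower and 42.2% higher. Against that library alone 5 members were lower and 1 higher, where 10.8% of all genes tested were lower and 33.7% higher.

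Tdh (gene 58865) had the widest range in FPKM of the 10 members. Its level in the 7 MSTN+/- libraries was 7.58 FPKM at the lowest, 24.0 FPKM at the median and 28.1 FPKM at the highest. It was listed at 0 FPKM in LN018 and at 230 and 205 FPKM in LN019 and LN020. The labelled groups therefore overlapped, with wild-type libraries both below and above all 7. Relative to the mean of the 7, LN019 and LN020 were at 10.4 and 9.22 times that level. Of the pluripotent cell markers 8 of 10 had the same order of groups, the exceptions being Pou5f1 and Sox2, and their part in the level of Tdh was not tested. The log2 change between the labels, MSTN+/- minus wild type, was -0.73 with a standard error (SE) of 1.41 on the log2(FPKM + 1) scale and did not pass the test (limma adjusted p = 0.689). It was -3.32 without LN018 and 4.44 against LN018 alone, a fit that assumes the lone library varies like the 7. The direction also turned without LN019 or LN020 and with a pseudocount of 0.1, where it did not pass.

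Gcat (gene 26912), whose enzyme takes the product of threonine dehydrogenase, was lower in level and spanned a narrower range. It was at 5.04 FPKM at the lowest, 7.06 FPKM at the median and 8.45 FPKM at the highest in MSTN+/- libraries. The wild-type values were 10.9, 19.5 and 23.4 FPKM, so the groups did not overlap, and LN018 was nearest to the MSTN+/- range. The log2 change was -1.20 with an SE of 0.21 (limma adjusted p = 0.00139), -1.50 without LN018 and -0.59 against LN018 alone. Since FPKM is scaled by transcript length, the levels of both genes can be set side by side. Tdh was 1.50 to 3.98 times the level of Gcat across LN010 to LN016 and 11.8 and 8.75 times in LN019 and LN020, and it was listed at 0 beside 10.9 FPKM of Gcat in LN018. Both steps of threonine breakdown were thus highest in LN019 and LN020, but of the 2 genes only Tdh was listed at 0 in LN018.

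**Figure D2:**
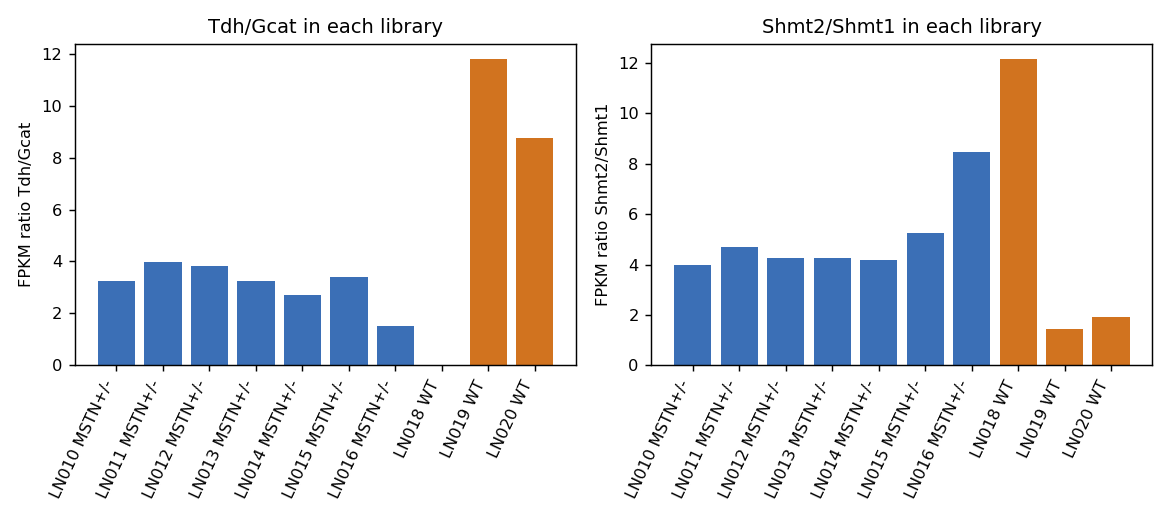
Ratio of FPKM values in each library for Tdh over Gcat (left) and Shmt2 over Shmt1 (right), 1 bar per library. Tdh over Gcat is 0 in LN018 and highest, at 11.8, in LN019, and Shmt2 over Shmt1 is highest, at 12.1, in LN018 and lowest, at 1.44, in LN019.

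Gldc (gene 104174), the decarboxylase of glycine cleavage, had the same order of groups as Tdh. In the 7 MSTN+/- libraries it was at 1.01 FPKM at the lowest, 3.47 FPKM at the median and 11.3 FPKM at the highest, the last in LN013. It was at 0.12 FPKM in LN018 and at 117 and 127 FPKM in LN019 and LN020. The latter were at 30.1 and 32.5 times the mean of the 7, and LN018 lay below all 7. The log2 change between the labels was -2.66 with an SE of 1.29 and did not pass (limma adjusted p = 0.117). Without LN018 it was -4.91, without LN019 or LN020 it was -1.55 or -1.50, and against LN018 alone it was 1.86.

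The other proteins of the glycine cleavage system were not uniform. Amt, the aminomethyltransferase, was at 2.01 to 20.2 FPKM across LN010 to LN016, 1.33 FPKM in LN018 and 62.5 and 67.9 FPKM in LN019 and LN020. Like Gldc it was lowest in LN018 and, within the 7, highest in LN013, and its log2 change of -1.36 did not pass (limma adjusted p = 0.273). It was -2.97 without LN018 and -0.59 or -0.53 without LN019 or LN020. Gcsh, the lipoyl-carrying protein of the complex, was at 24.0 to 34.5 FPKM against 38.6, 71.0 and 65.7 FPKM, a log2 change of -0.93 with an SE of 0.18 (limma adjusted p = 0.00291) that missed the threshold against LN018 alone (-0.39, adjusted p = 0.0932). Dld, a dehydrogenase subunit shared with other mitochondrial complexes, was at 27.8 to 35.7 FPKM against 39.3, 30.3 and 35.2 FPKM. Its log2 change of -0.16 did not pass (limma adjusted p = 0.257). The level of Gldc relative to Gcsh ran from 0.0031 in LN018, through 0.032 to 0.37 across LN010 to LN016, to 1.65 and 1.93 in LN019 and LN020.

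The cytosolic and mitochondrial serine hydroxymethyltransferases behaved differently in LN018. Shmt1 (gene 20425) was at 6.88 FPKM at the lowest, 14.8 FPKM at the median and 16.2 FPKM at the highest in MSTN+/- libraries. It was at 9.58 FPKM in LN018, within that range, and at 63.0 and 65.2 FPKM in LN019 and LN020. The log2 change was -1.31 with an SE of 0.51 (limma adjusted p = 0.0601). It missed the threshold as deposited and passed it under median-of-ratios, TPM and quantile scaling (limma adjusted p = 0.0275, 0.0448 and 0.0328). The change was -2.18 without LN018, -0.88 or -0.86 without LN019 or LN020, and 0.44 against LN018 alone.

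Shmt2 (gene 108037) had 58.4 FPKM at the lowest, 64.9 FPKM at the median and 73.4 FPKM at the highest in MSTN+/- libraries. The wild-type values of 116, 90.5 and 125 FPKM all lay above these. The log2 change was -0.75 with an SE of 0.13 (limma adjusted p = 0.00111), and it was -0.71 without LN018 and -0.84 against it alone. Shmt2 exceeded Shmt1 in all 10 libraries, by 3.98 to 8.48 times in MSTN+/- libraries, 12.1 times in LN018, and 1.44 and 1.91 times in LN019 and LN020. The mitochondrial form was thus in largest excess where Tdh was at 0, and in smallest excess where Tdh was highest.

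Of the folate enzymes, Mthfd2 (gene 17768), a mitochondrial dehydrogenase and cyclohydrolase, had the largest log2 change of the 7 members that passed. It was at 9.65 FPKM at the lowest, 14.9 FPKM at the median and 17.8 FPKM at the highest in MSTN+/- libraries. LN018, LN019 and LN020 were at 59.0, 46.9 and 84.9 FPKM, or 4.23, 3.36 and 6.08 times the mean of the 7. The groups did not overlap, and the log2 change of -2.10 had an SE of 0.24 (limma adjusted p = 9.18e-05). It was -2.13 without LN018 and -2.04 against it alone.

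Mthfd1l (gene 270685), the synthetase that releases formate, differed from Mthfd2 in LN018. It was at 13.4 FPKM at the lowest, 17.2 FPKM at the median and 20.2 FPKM at the highest across LN010 to LN016. LN018, LN019 and LN020 were at 18.0, 31.2 and 41.3 FPKM, and LN018 lay within the MSTN+/- range. The log2 change of -0.72 had an SE of 0.22 and passed (limma adjusted p = 0.0216). It missed the threshold without LN019 (adjusted p = 0.0839), without LN020 (0.113) and against LN018 alone (-0.08, 0.731). Mthfd1, the cytosolic enzyme with the same synthetase activity, named here after its values were seen, was likewise at 25.7 FPKM in LN018 and at 115 and 140 FPKM in LN019 and LN020, against 20.9 to 48.8 FPKM (limma adjusted p = 0.131).

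The serine synthesis enzymes were high in wild-type libraries, and the first steps were so also in LN018. Phgdh (gene 236539), the dehydrogenase that opens the route, was at 43.2 FPKM at the lowest, 57.3 FPKM at the median and 60.5 FPKM at the highest in MSTN+/- libraries. It was at 196, 106 and 158 FPKM in LN018, LN019 and LN020. It was the only member whose highest value of all was in LN018, at 3.58 times the mean of the 7. The log2 change was -1.44 with an SE of 0.18 (limma adjusted p = 1.72e-04), -1.24 without LN018 and -1.83 against it alone.

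Psat1 (gene 107272), the aminotransferase of the next step, was at 46.6 FPKM at the lowest, 65.1 FPKM at the median and 74.8 FPKM at the highest, against 187, 134 and 236 FPKM. No wild-type value fell within the MSTN+/- range. Its log2 change of -1.56 had an SE of 0.20 (limma adjusted p = 2.01e-04), and it was -1.53 without LN018 and -1.60 against it alone. Psph (gene 100678), the phosphatase that completes serine, was at 7.90 FPKM at the lowest, 11.7 FPKM at the median and 14.8 FPKM at the highest. Its wild-type values were 13.9, 22.0 and 29.2 FPKM, the first of them within the MSTN+/- range. The log2 change of -0.82 had an SE of 0.23 and passed (limma adjusted p = 0.0153), but not without LN019 (adjusted p = 0.0585), without LN020 (0.0842) or against LN018 alone (-0.27, 0.415).

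**Figure D3:**
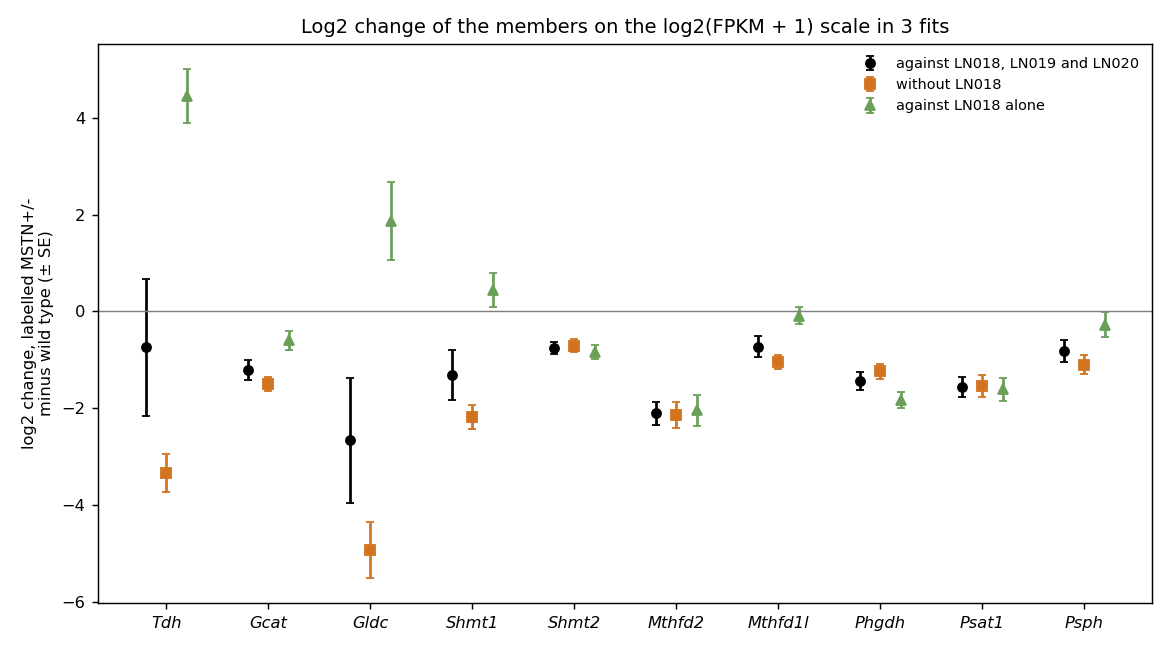
Log2 change of each member, labelled MSTN+/- minus wild type, with its standard error, against all 3 wild-type libraries (circles), without LN018 (squares) and against LN018 alone (triangles). Mthfd2, Phgdh, Psat1, Shmt2 and Gcat are below 0 in all 3 fits, whereas Tdh moves from -3.32 to 4.44 and Gldc from -4.91 to 1.86.

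Of the 10 members, 5 did not overlap between the labelled groups and were lower in MSTN+/- libraries, where 6.86% of all genes tested did so. These 5, Phgdh, Psat1, Mthfd2, Shmt2 and Gcat, also passed the threshold under each of the 19 alternatives tried. The alternatives refit the same libraries, and the 5 are named for not overlapping, so this adds no separate evidence. The share of all genes tested that did so was not counted. No member lay above the wild-type libraries in all 7 MSTN+/- libraries, as 25.2% of all genes tested did.

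Within the MSTN+/- label, the members were unevenly spread. The highest of the 7 values was 1.26 times the lowest for Shmt2, 1.40 times for Phgdh, 3.71 times for Tdh and 11.2 times for Gldc. LN016 was the lowest of the 7 for 6 members, among them Tdh, Gcat and Shmt1, and for 28.8% of all genes tested. LN013 was the highest for 5 members, and for 28.2% of all genes tested. The summed level of 8 proliferation markers was 186 FPKM in LN016 and 349 to 435 FPKM in the other MSTN+/- libraries. The pluripotent cell markers without Pou5f1 and Sox2 had their highest sum of the 7 in LN013, at 431 FPKM, where Gldc and Amt were also highest. Pou5f1 and Sox2 went the other way, being highest of the 7 in LN016, at 848 and 357 FPKM. The part of these markers in the members' levels was not tested.

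The levels that moved with Tdh over all libraries were compared by Pearson's r of log2(FPKM + 1) over the 10 libraries, among 9553 genes with a mean of at least 5 FPKM. The libraries fall into clusters, with LN018 at one end and LN019 with LN020 at the other, and 685 genes had an r of at least 0.9. The 5 genes most like Tdh were Rars2, a mitochondrial arginyl-tRNA synthetase gene (r = 0.992), the corepressor gene Tle4 (0.992), the deacetylase gene Hdac6 (0.989), Alg13 (0.989), a subunit of a glycosyltransferase, and the kinase gene Syk (0.988). Tle4, for example, was at 9.96 to 18.2 FPKM across LN010 to LN016, 3.43 FPKM in LN018 and 53.6 and 51.5 FPKM in LN019 and LN020. These genes were chosen for their likeness to Tdh over the same libraries.

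Genes of neighbouring routes were taken from 10 lists with 87 genes, of which 80 were tested. In the fit of the labelled groups 12 were higher in MSTN+/- libraries, 27 lower and 41 did not pass, with a median log2 change of -0.39, beside 31.8% higher and 12.8% lower of all genes tested. Without LN018 the counts were 17 higher and 46 lower, beside 42.2% and 31.9%, and against that library alone 19 higher and 20 lower, beside 33.7% and 10.8%. The counts of the single lists below stand against the same shares where they come from these fits. The small lists allow no more than a description. Counts from other fits stand against other totals. Of all genes tested, 3504 were higher and 793 lower of 13878 without LN019, and 3445 and 791 of 13869 without LN020. With all libraries, 4468 were higher and 1800 lower of 14047. Leaving out a single MSTN+/- library left 3977 to 4131 higher and 1386 to 1677 lower. Counts against LN018 alone are given below for each list except the other serine- and threonine-degrading enzymes and the glycine cleavage partners described above.

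**Figure D4:**
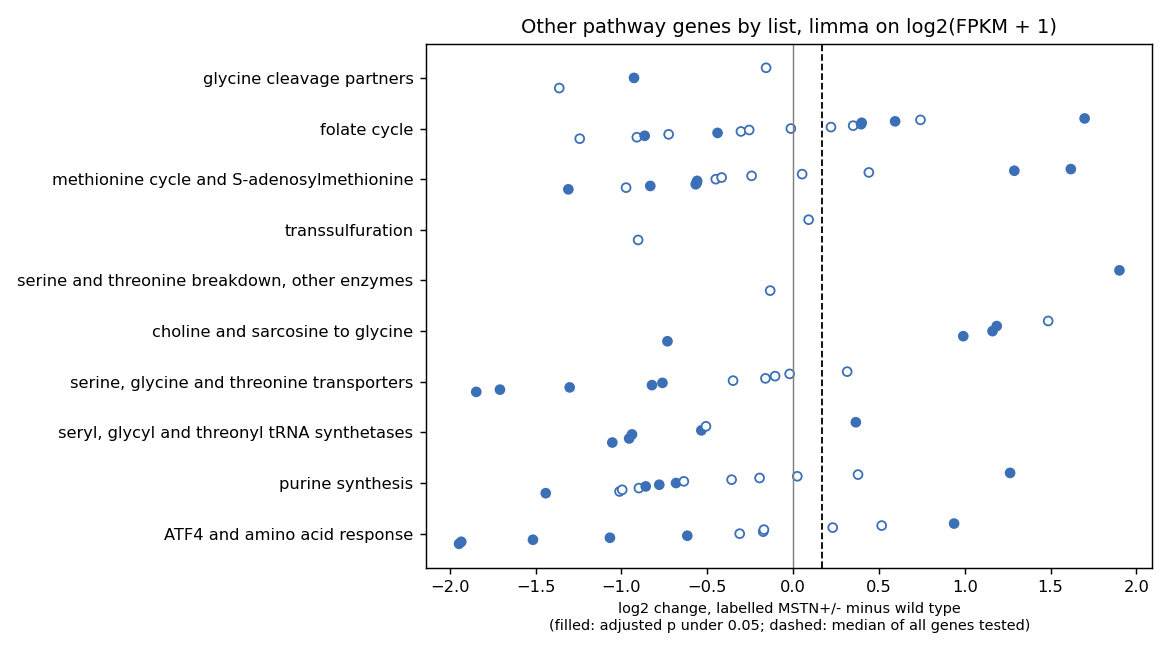
Log2 change, labelled MSTN+/- minus wild type, of the 80 tested genes of neighbouring routes, by list, with genes past the threshold filled and the median of all genes tested (0.17) dashed. Transporters and genes of the ATF4 response reach the most negative values, and 4 of the 5 enzymes of the choline route lie to the right of 0.

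ATF4, at the centre of the amino acid response, is a transcription factor whose translation rises when amino acids run short. In mouse and human cells its known targets include Phgdh, Psat1, Shmt2 and Mthfd2. Of 11 genes in this list, 5 were lower in MSTN+/- libraries, 1 was higher and 5 did not pass. Without LN018 5 were lower and 3 higher, and against it alone 7 were lower and 1 higher. Atf4 itself had 87.9 to 123 FPKM across LN010 to LN016 and 209, 215 and 270 FPKM in LN018, LN019 and LN020, a log2 change of -1.07 with an SE of 0.14 (limma adjusted p = 2.14e-04). Trib3, a pseudokinase gene induced by ATF4, had 4.05 to 9.09 FPKM against 34.0, 22.0 and 29.0 FPKM (log2 change -1.93, limma adjusted p = 1.43e-04). Chac1, which encodes a glutathione-degrading enzyme, had 2.81 to 6.70 FPKM against 26.8, 13.5 and 26.1 FPKM (log2 change -1.95, limma adjusted p = 5.03e-04). LN018 lay above all 7 MSTN+/- libraries for these 3 genes, as for 19.8% of all genes tested, but they were chosen by their p in a fit that holds LN018 as wild type. Other genes of the list lay elsewhere. Ddit3 had 18.2 to 26.4 FPKM across LN010 to LN016 and 47.2, 13.2 and 11.1 FPKM in LN018, LN019 and LN020. Cebpb had 18.1 to 27.0 FPKM against 30.1, 9.85 and 9.51 FPKM. Both lay below the 7 in LN019 and LN020, and neither passed (limma adjusted p = 0.618 and 0.181). They were named after their values were seen. The part of ATF4 in the members' levels was not tested. The gene of this list that was higher was Ddit4, an inhibitor of mTORC1 signalling, at 33.0 to 51.6 FPKM against 18.3, 20.1 and 29.6 FPKM (log2 change 0.94, limma adjusted p = 0.00197), named after its values were seen.

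Transporters of serine, glycine, threonine and other neutral amino acids had 5 of 10 tested genes lower and 0 higher (1 higher at an unadjusted p under 0.05), with a median log2 change of -0.56. Without LN018 the same numbers were lower and higher, and against it alone 6 were lower and 2 higher. Slc7a5, the light chain of a large neutral amino acid exchanger, had 22.2 to 35.7 FPKM in MSTN+/- libraries and 95.8, 97.5 and 128 FPKM in LN018, LN019 and LN020 (log2 change -1.85, limma adjusted p = 2.03e-05). Slc38a4, a sodium-coupled carrier, had 11.4 to 19.3 FPKM against 43.5, 49.5 and 51.0 FPKM (log2 change -1.71, limma adjusted p = 1.45e-05), and its relative Slc38a2 had 40.9 to 52.7 FPKM against 77.6, 128 and 153 FPKM (log2 change -1.30, limma adjusted p = 4.55e-04). All 3 were also lower against LN018 alone, at -1.70, -1.57 and -0.74. The synthetases that load seryl, glycyl and threonyl tRNAs had 4 of 6 genes lower and 1 higher, 5 and 1 without LN018, and 3 and 0 without LN019, without LN020, without any 1 of LN010, LN011 and LN012, and against LN018 alone. Tars, Gars and Sars, the cytosolic forms, had log2 changes of -0.96, -1.05 and -0.53 (limma adjusted p = 2.07e-04, 2.33e-04 and 0.00181), and Gars, which also serves mitochondria, was at 91.8 to 110 FPKM against 175, 182 and 273 FPKM.

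Purine synthesis, which consumes glycine and formyl groups, is described by 13 tested genes. Of these 4 were lower in MSTN+/- libraries, 1 was higher and 8 did not pass. Without LN018, 10 were lower, without LN019 or without LN020 2 were lower, and against LN018 alone 0 were lower, also at an unadjusted p under 0.05, and 4 higher. Atic, which transfers a formyl group in the last steps of the route, had 41.0 to 60.0 FPKM in MSTN+/- libraries and 70.5, 106 and 114 FPKM in LN018, LN019 and LN020 (log2 change -0.78, limma adjusted p = 0.00420), and Gmps, a GMP synthetase gene, had 12.1 to 17.6 FPKM against 19.7, 30.8 and 38.2 FPKM (log2 change -0.86, limma adjusted p = 0.00422). Both missed the threshold against LN018 alone (adjusted p = 0.139 and 0.119). Adssl1, an adenylosuccinate synthase gene best known from muscle, was higher in MSTN+/- libraries, at 3.53 to 6.73 FPKM against 1.23, 1.34 and 1.77 FPKM (log2 change 1.26, limma adjusted p = 5.58e-04). Proliferation markers were lower for 6 of 8 genes, 7 without LN018, 1 without LN019, 1 without LN020 and 0 against LN018 alone, where 0 passed also at an unadjusted p under 0.05. Their summed level was 395, 1055 and 1138 FPKM in LN018, LN019 and LN020, and their part in the purine and folate levels was not tested.

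The remaining folate genes moved in both directions, with 3 of 15 tested higher, 2 lower and 10 not past the threshold. Without LN018 5 were higher and 7 lower, without LN019 3 and 1, without LN020 2 and 1, and against LN018 alone 3 and 2. Leaving out any 1 MSTN+/- library other than LN013 also left 1 lower. Ggh, which removes glutamate from folates, had 24.1 to 31.1 FPKM in MSTN+/- libraries against 11.3, 6.50 and 6.08 FPKM (log2 change 1.70, limma adjusted p = 4.15e-05). The reduced folate carrier gene Slc19a1 was at 9.94 to 14.0 FPKM against 8.77, 5.74 and 7.22 FPKM (log2 change 0.59, limma adjusted p = 0.00669), and its call was lost under median-of-ratios and quantile scaling (adjusted p = 0.0606 and 0.0944) and against LN018 alone (0.117). The mitochondrial folate carrier gene Slc25a32 was lower, at 3.57 to 4.62 FPKM against 5.94, 5.52 and 5.92 FPKM (log2 change -0.44, limma adjusted p = 0.00957).

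In the methionine cycle 2 of 13 tested genes were higher, 5 lower and 6 did not pass, 3 higher and 9 lower without LN018, 1 and 3 without LN019 or without LN020, and 2 and 2 against LN018 alone. Leaving out any 1 MSTN+/- library left 1 higher. Ahcyl2, a relative of the adenosylhomocysteine hydrolase, had 3.60 to 4.24 FPKM against 5.52, 6.31 and 6.94 FPKM (log2 change -0.56, limma adjusted p = 0.00188). The spermidine synthase gene Srm had 93.4 to 114 FPKM against 127, 175 and 168 FPKM (log2 change -0.57, limma adjusted p = 0.00402), and this was lost against LN018 alone (adjusted p = 0.0953). Bhmt, which remethylates homocysteine with betaine, was higher but low in level, at 0.94 to 4.91 FPKM in MSTN+/- libraries, 0.19 FPKM in LN019 and listed at 0 in the other wild-type libraries (log2 change 1.62, limma adjusted p = 0.00231).

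Genes that make glycine from choline by way of betaine and sarcosine form a small list. Of 5 tested, 3 were higher in MSTN+/- libraries and 1 lower, with a median log2 change of 1.16, where 31.8% of all genes tested were higher and 12.8% lower. The counts were the same without LN018, and against it alone 3 were higher and 0 lower. Without LN019, without LN020, and under median-of-ratios or quantile scaling, 2 were higher and 1 lower. Leaving out any 1 MSTN+/- library other than LN014 also left 2 higher. Dmgdh and Chdh, dehydrogenases of that route, were at 0.86 to 1.89 and 0.97 to 1.99 FPKM in MSTN+/- libraries and did not exceed 0.07 and 0.31 FPKM in LN018, LN019 and LN020 (log2 change 1.19 and 0.99, limma adjusted p = 3.49e-04 and 9.53e-04). Aldh7a1, an aldehyde dehydrogenase that also acts in lysine breakdown, was the one lower, at 18.8 to 22.4 FPKM against 23.3, 37.7 and 46.0 FPKM (log2 change -0.73, limma adjusted p = 0.00668), and it did not pass against LN018 alone (0.163). Of the other serine- and threonine-degrading enzymes, Sdsl, a dehydratase, was higher at 2.60 to 4.17 FPKM against 0.30, 0.08 and 0 FPKM (log2 change 1.90, limma adjusted p = 9.61e-06). Srr, the serine racemase gene, had a log2 change of -0.13 that did not pass (limma adjusted p = 0.471), and Sds, the serine dehydratase gene, stayed at or below 0.35 FPKM and was not tested.

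Neither transsulfuration gene passed. Without LN018 1 was lower, without LN020 1 was higher, and against LN018 alone both were higher. Cbs, which joins serine to homocysteine, was at 1.08 to 2.91 FPKM across LN010 to LN016 and at 0.30, 9.04 and 8.03 FPKM in LN018, LN019 and LN020, the same order as Tdh and Gldc (log2 change -0.90, limma adjusted p = 0.195; -1.86 without LN018 and -0.39 or -0.46 without LN019 or LN020). Cth, the next enzyme, was at 13.8 to 26.7 FPKM against 8.69, 15.7 and 52.1 FPKM, so that LN019 and LN020 differed from each other (log2 change 0.09, limma adjusted p = 0.875).

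**Figure D5:**
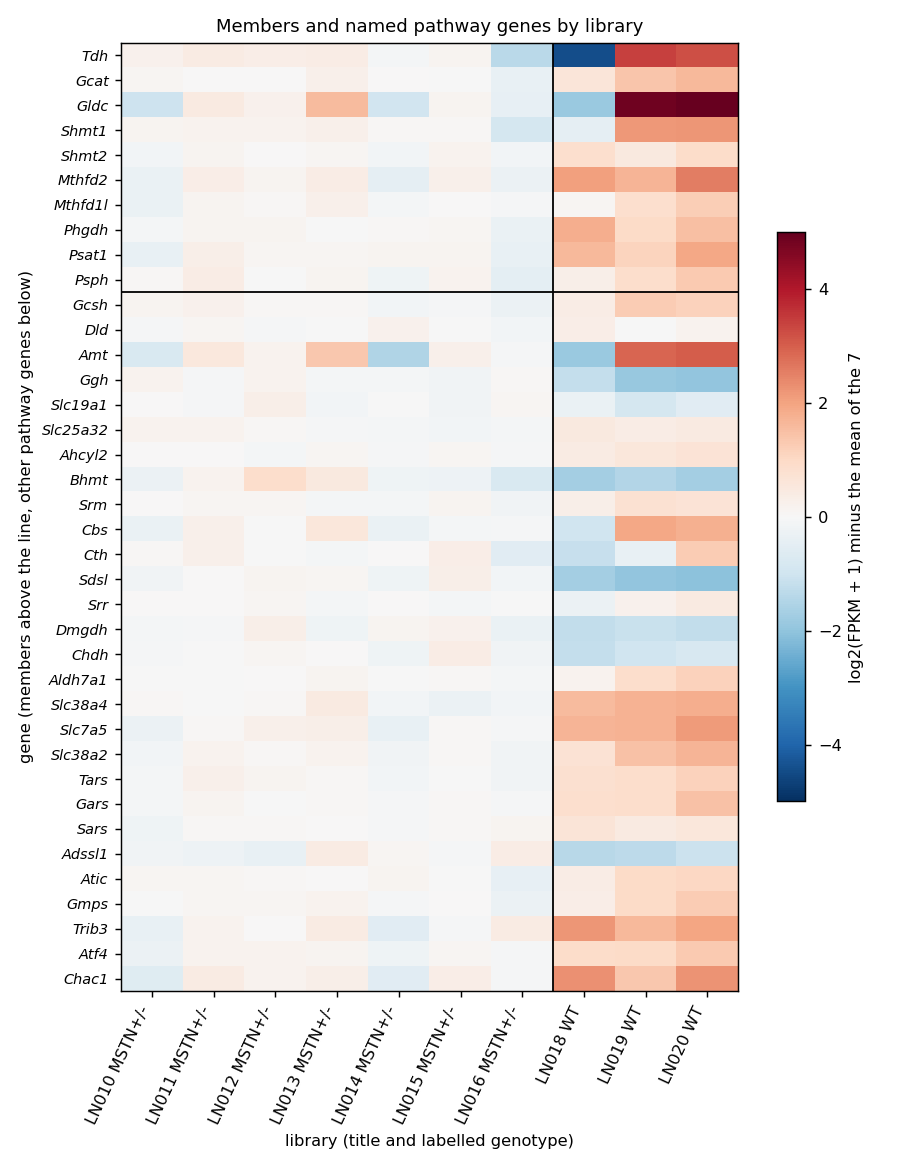
Log2(FPKM + 1) of the 10 members (above the horizontal line) and the named genes of neighbouring routes (below) in each library, as the difference from the mean of the 7 MSTN+/- libraries. Tdh, Gldc and Amt change from blue to red between LN018 and LN019 with LN020, whereas Phgdh, Psat1, Mthfd2, Slc7a5, Slc38a4, Trib3, Chac1 and Atf4 are red in all 3.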

How the data were processed

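The authors deposited 1 table of FPKM values, per the file headers, for 10 libraries (7 labelled MSTN+/-, 3 labelled wild type), rounded to 2 decimals. The sources used here do not give the aligner, counter, genome build, filters or the treatment of reads that match several genes. Columns were tied to libraries by the title in the column name, and 0 columns of per-library values were left unused. Groups came from the genotype label, and replicate numbers follow the order of the sample records and pair nothing. Since these values are normalized, count models were not applied, and absolute depth is unknown. Relative depth was read from the modal ratio of low values in single-transcript genes listed at 0 in at least 4 libraries, which are whole fragments times a fixed step.

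The 14047 genes that reached 1 FPKM in 3 or more libraries entered limma 3.58.1 under R 4.3.3. Values were taken as log2(FPKM + 1), the prior variance followed intensity (trend), no covariate was used, and Benjamini-Hochberg adjustment ran over all of these genes with a threshold of 0.05. A fold change on this scale understates changes of low genes. On simulated data with independent noise per gene, 60% of genes changed 2-fold, 86% changed 4-fold and 96% changed 8-fold were recovered. Of 182 calls, 7.14% were false. The changed genes were drawn only from those above a set mean level, so the recovery shares do not cover genes of low level. The simulation held no outlying library such as LN018, so it does not show how the procedure behaves with one. The members, the lists and the marker sets were chosen with earlier results of these data known. Named genes are the members, up to 3 genes of smallest p in each neighbouring list, and the 5 genes most like Tdh. The settings tried besides were scaling by median of ratios, TPM or quantiles, a pseudocount of 0.1, no filter, a mean of at least 5 FPKM, library weights, robust empirical Bayes, leaving out each library, and LN018 alone. Figures were drawn with matplotlib 3.10.9.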

Additional observations from a re-analysis of the deposited data

Results flagged for a closer look

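Among the 7 MSTN+/- libraries, the members and the named neighbouring genes were examined for a single library far from the others by Dixon's test, which flags about 1 group in 20 by chance; 38 genes were examined and 4 were flagged. Gldc was at 11.33 FPKM in LN013, above 1.01 to 4.60 FPKM in the other MSTN+/- libraries, and the transporter gene Slc38a4 was at 19.31 FPKM in the same library, above 11.37 to 14.73 FPKM. Shmt1 was at 6.88 FPKM in LN016, below 13.93 to 16.22 FPKM in the others, and the purine gene Atic was at 40.97 FPKM in the same library, below 54.76 to 59.95 FPKM. The wild-type group, with 3 libraries, was too small to be examined this way.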

How the results depend on the processing

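Gcat, Shmt2, Mthfd2, Phgdh and Psat1 kept their direction and passed the threshold under all 19 alternatives, which are refits of the same libraries. The count of members called lower was 5 to 10 across the alternatives, and 1 member, Tdh, was called higher against LN018 alone. Genes called lower over the whole table, 1800 as deposited, were 3230 with median-of-ratios scaling, 3491 with quantile normalization, 4521 with library weights, and 791 to 4449 when 1 library was left out, the lowest without LN020 (793 without LN019) and the highest without LN018. Neighbouring genes called higher, 12 of 80 tested as deposited, were 7 with median-of-ratios scaling and 19 with library weights. At a mean of at least 5 FPKM 4 were called higher, but that filter left only 66 of these genes to test. Those called lower, 27 as deposited, were 39, 38 and 33 with median-of-ratios, quantile and TPM scaling and 46 with library weights. With 1 library left out they were 20 to 46, the highest without LN018. Library weights gave that library a weight of 0.035. The median log2 change of all genes tested was 0.17 as deposited and 0.14, -0.0044 and -0.055 after TPM, median-of-ratios and quantile scaling.

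Directions turned for Tdh with a pseudocount of 0.1 (0.31), without LN019 (0.60) or LN020 (0.52) and against LN018 alone (4.44). Against that library alone they also turned for Gldc (1.86), Shmt1 (0.44), Amt (1.86), Cbs (1.01) and Srr (0.30). With 1 library left out, Tdh ran from -3.32 (without LN018) to 0.60, Cth from -0.45 (without LN018) to 0.78 (without LN020), turning also without LN019 (-0.06), and Srr from -0.35 (without LN018) to 0.032 (without LN020). Gldc ran from -4.91 (without LN018) to -1.50 (without LN020), Shmt1 from -2.18 to -0.86, Amt from -2.97 to -0.53, and Cbs from -1.86 (without LN018) to -0.39 (without LN019). Mthfd1l was -0.47 without LN020. Cth turned with median-of-ratios scaling (-0.11), and Dld with library weights (0.0013). The causes were not tested. No paired analysis was possible because the labels give the libraries no shared numbers. Depth is known only in relative terms, so no detection limit can be given for a value listed at 0.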
